A study of Mus musculus with 18 samples.

Results

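The collagen genes of the mouse, leaving out those of the cartilage type, were followed here across mammary organoid cultures of 2 genotypes in 3 media. The members were the genes whose symbol is Col, a number, the letter a and a number, without the cartilage genes Col2a1, Col9a1, Col9a2, Col9a3, Col11a1 and Col11a2, with at least 10 counts summed over the 18 libraries and counts in all 6 groups. Of 44 symbols of this form 38 remained after the 6 cartilage genes were left out. Col13a1, with 35 counts and none in 1 group, and Col19a1, with 9 counts, did not meet the count limits, which left 36 members of the 55536 genes in the table. The rule uses no difference between groups, but it was set with earlier results of these data known.

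Collagens are secreted or membrane-bound proteins whose chains wind into triple helices. Fibrillar collagens form the fibres of connective tissue, and network-forming collagen IV underlies every epithelium as part of the basement membrane. Collagen VI forms beaded filaments beside basement membranes, collagen VII forms the anchoring fibrils below stratified epithelia, and collagen XVII spans the membrane of basal epithelial cells at hemidesmosomes. In the mammary gland, stromal fibroblasts are known to make most fibrillar collagen, while myoepithelial cells contribute to the basement membrane around the ducts.

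RNA was sequenced from organoids grown out of mammary glands of C57BL/6 mice aged 6 to 7 weeks, either RasGRP1-/- (KO) or wild type (WT). RasGRP1 is an exchange factor that loads Ras with GTP. The organoids were embedded in matrigel, a gel of basement membrane proteins, in DMEM/F12 medium supplemented with insulin-transferrin-selenium, and were kept for 5 days with 1 of 3 factor mixes. EGF-WR medium held 2.5 nM EGF with 0.1 nM NGS-Wnt and 8.3 nM Rspo2, EGF medium held 2.5 nM EGF alone, and WR medium held 0.1 nM NGS-Wnt and 8.3 nM Rspo2 without EGF. NGS-Wnt is an engineered surrogate of Wnt ligands and Rspo2 (R-spondin 2) amplifies the response to Wnt. The 6 groups were thus KO EGF-WR, KO EGF, KO WR, WT EGF-WR, WT EGF and WT WR, with 3 biological replicates each. The labels give every library a batch that equals its replicate number, so each of the 3 batches held 1 library of every group. What the batch shared, and which mice gave which culture, is not given in the sources used here, so the p-values below measure the spread between these cultures within batches.

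The 18 libraries held 24290097 to 31269899 counts each, of which the members took 0.4023% to 1.1524%. Basal epithelial markers (Krt5, Krt14, Trp63, Acta2, Myh11, Cnn1 and Oxtr) summed to 3678 to 8330 CPM (counts scaled to the library size) and luminal markers (Krt8, Krt18, Krt19, Epcam, Elf5, Kit and Prlr) to 4405 to 6718 CPM, as the labelled tissue has. Genes listed as markers of other cells were detected as well, from 238 to 1013 CPM summed over 12 fibroblast markers, 144 to 730 CPM over 11 endothelial, 371 to 824 CPM over 6 pericyte, 427 to 920 CPM over 5 Schwann cell and 40.3 to 1149 CPM over 7 adipocyte markers. Such a sum can be carried by few genes of its list, and it does not count cells or show that a cell type was present. Lymphocyte markers stayed at 0.522 CPM or less, with Ms4a1 at 0 in every library. Rasgrp1 itself had 25 counts over the 9 KO libraries and 145 counts over the 9 WT libraries, near the detection limit in both. The labels do not say which exons are missing from the allele.

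Levels were compared between genes as CPM per kilobase of annotated exon, averaged over the 18 libraries with the SD. Col17a1 came first at 145 ± 37.9 CPM per kb, followed by Col6a1 at 109 ± 45.0, Col4a1 at 106 ± 46.4, Col1a1 at 84.9 ± 47.6, Col18a1 at 82.5 ± 20.3 and Col4a2 at 76.0 ± 32.8. Neighbours among these listed genes lay within 1 SD of each other. This SD spans the groups and batches, and the genes were measured in the same libraries, so it does not decide their order. Col4a1, for example, stood above Col4a2 in each of the 18 libraries, at ratios of 1.31 to 1.49. Of the members, 21 averaged 10 CPM or more, down to Col8a1 at 2.04 CPM per kb, and the other 15 lay at or below the 1.82 CPM per kb of Col8a2. The lowest were Col6a5 at 0.017 and Col4a3 at 0.0118 CPM per kb. Only Col4a3, with 51 counts in all, failed the filter on low counts and went untested. The reads of Col20a1 (791 counts) and of Col4a3 are uncertain, since annotated exons of other genes overlap theirs, and Col4a1 and Col4a2 share 22 exon bases on opposite strands. Whether the counting used strand is not given in the sources used here.

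Collagen transcripts were lower in the EGF-WR medium than in EGF medium or in WR medium. Against WR medium 17 members fell in KO and 17 in WT organoids, and against EGF medium 16 fell in KO and 20 in WT. In this fit no member rose in any of these 4 comparisons, in which 6.1% (KO) and 4.92% (WT) of all genes rose against WR and 5.17% (KO) and 6.85% (WT) against EGF. In edgeR's quasi-likelihood fit over 17092 genes, at an adjusted p under 0.05, the share of all genes that fell was 6.65% in KO and 5.82% in WT for EGF-WR against WR, and 6.48% in KO and 8.78% in WT for EGF-WR against EGF. The median log2 fold change of the 35 tested members was -0.85 in KO and -0.84 in WT against WR, where the median of all genes was 0.004 and 0.003. Against EGF it was -0.82 in KO and -0.93 in WT, with all genes at 0.004 and 0.005. Every one of the called members was lower in all 3 batches, and the folds ran from 1.44 to 4.64 (KO) and 1.39 to 5.32 (WT) against WR, and from 1.49 to 4.82 (KO) and 1.22 to 5.01 (WT) against EGF. The calls were made on these same batches with a batch term, so the shared direction describes them and is no separate evidence. The comparisons with WR and with EGF share the EGF-WR libraries and are therefore not independent of each other. In bulk RNA, fewer cells of a type and less RNA per cell cannot be told apart.

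The KO and WT comparisons set different libraries against each other. Both came from the same fit over all 18 libraries, which shares the batch terms and the spread of each gene. Their calls are therefore not independent. For all genes, the share of calls common to KO and WT was not computed. Against WR, 16 members fell in both genotypes, which is 94.1% of either list. Col23a1 was called in KO alone and Col3a1 in WT alone. The Col3a1 call (edgeR adjusted p = 0.0491) was lost in 15 of the 18 fits that each left out 1 library. Against EGF, the 16 members called in KO were 100% of that list and 80% of the WT list, which also held Col1a2, Col4a5, Col6a4 and Col8a1. These WT calls of Col4a5 and Col6a4 (edgeR adjusted p = 0.0474 and 0.0436) were lost in 12 and 9 of the 18 fits. None of these differences between genotypes passed its own test, as given further on. The call in EGF-WR against both other media held with any 1 library left out, in both genotypes, for 10 members: Col4a1, Col4a2, Col5a1, Col5a3, Col6a1, Col6a2, Col6a3, Col12a1, Col15a1 and Col28a1.

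These counts depended on the batches. With batch 1 left out, 3 members (Col6a1, Col17a1 and Col6a3) were still called for WT EGF-WR against WR and 10 for KO, where 2.52% and 2.99% of all genes fell, and all members called with every library kept their sign. Without the batch term in the fit 3 (KO) and 2 (WT) members were called against WR and 2 (KO) and 3 (WT) against EGF, with Col6a1 and Col6a2 in every one of these lists. That fit called 1.36% (KO) and 1.13% (WT) of all genes lower against WR and 0.415% (KO) and 1.53% (WT) against EGF. Upward calls appeared in some of the other fits. Col25a1 was called higher in EGF-WR against WR in KO and WT without batch 2 and in WT under DESeq2, where 4.76%, 4.1% and 6.13% of all genes rose. Col7a1 and Col17a1 were called higher in WT EGF-WR against EGF without batch 1, where 4.72% of all genes rose. Leaving out WT EGF-WR replicate 3 or WT WR replicate 1 gave 11 for WT against WR, and leaving out KO EGF-WR replicate 1 gave 11 for KO.

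As a share of all counts, the 36 members took 0.582%, 0.458% and 0.436% in KO EGF-WR, 1.04%, 0.583% and 0.731% in KO EGF and 1.03%, 0.725% and 0.606% in KO WR cultures, in the order of batches 1, 2 and 3. In WT they took 0.593%, 0.441% and 0.402% in EGF-WR, 1.15%, 0.646% and 0.802% in EGF and 1.09%, 0.668% and 0.557% in WR. The EGF-WR library was the lowest of its batch and genotype in every case, while batch 1 gave the highest share in all 6 groups. For 17 of the 36 members batch 1 was the highest in all 6 groups, against 1 member for batch 2 and 0 for batch 3, so libraries of batch 1 in EGF-WR medium can exceed those of batches 2 and 3 in the other media.

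The summed markers of fibroblasts, endothelial cells, adipocytes, pericytes and myeloid cells were lowest in EGF-WR medium within each batch as well. Of all genes, 6.65% (KO) and 5.82% (WT) fell in EGF-WR against WR, and 6.48% (KO) and 8.78% (WT) against EGF. Fibroblast markers summed to 282 to 347 CPM in KO EGF-WR, 478 to 711 in KO EGF and 502 to 1013 in KO WR cultures, and to 238 to 342, 515 to 771 and 499 to 847 CPM in the same WT media. Of the 12, 4 fell against WR in either genotype, and 5 (KO) and 6 (WT) against EGF. Endothelial markers summed to 217 to 279 CPM in KO EGF-WR, 393 to 528 in KO EGF and 317 to 730 in KO WR, with 144 to 235, 506 to 607 and 324 to 466 CPM in WT, and 9 of 11 fell against WR in either genotype and 6 (KO) and 11 (WT) against EGF. All 7 adipocyte markers fell against WR in either genotype, and 5 (KO) and 6 (WT) against EGF. Pericyte sums were 371 to 641 CPM in KO EGF-WR, 534 to 787 in KO EGF and 468 to 770 in KO WR. In the same WT media they were 400 to 613, 589 to 824 and 442 to 773 CPM. Among 6 pericyte markers 3 fell against WR in either genotype and 2 (KO) and 4 (WT) against EGF, where Higd1b rose in WT, at averages of 0.351 CPM in WT EGF-WR and 0.0223 CPM in WT EGF. Myeloid sums were 10.2 to 24.1 CPM in KO EGF-WR, 19.5 to 62.3 in KO EGF and 25.5 to 45.1 in KO WR. In the same WT media they were 8.98 to 28.5, 18.4 to 155 and 35.2 to 71.2 CPM. Of 7 myeloid markers none fell against WR and 1 against EGF in either genotype, and of 5 Schwann cell markers none fell and Sox10 rose in KO against WR. None of these markers was at 0 in all libraries. Luminal markers summed to 5473 to 5877 CPM in KO EGF-WR, 4414 to 6718 in KO EGF and 4515 to 5791 in KO WR cultures, and to 4999 to 5477, 4405 to 5695 and 4910 to 5275 CPM in the same WT media, and 4 (KO) and 3 (WT) of the 7 rose and 1 fell against WR. The part of these cells in the collagen results was not tested.

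**Figure D1:**
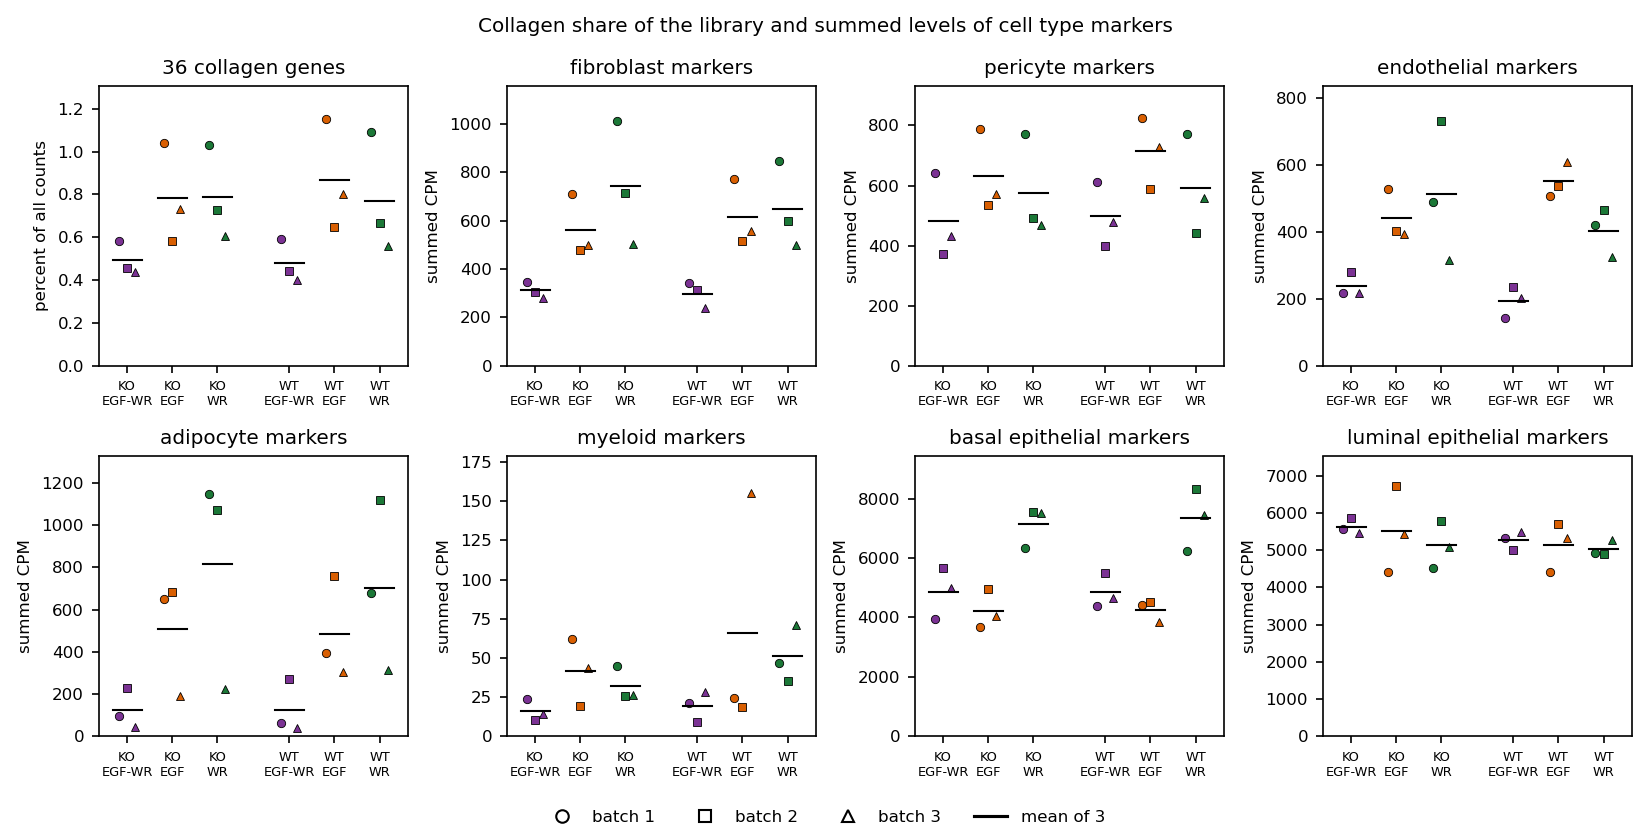
Share of all counts taken by the 36 collagen genes (percent) and summed CPM of 7 cell type marker lists, in each library; KO groups stand left of WT groups, symbols mark batches 1 to 3 and bars the mean of 3. The collagen share and the fibroblast, pericyte, endothelial, adipocyte and myeloid sums have their lowest group means in EGF-WR medium, while the basal and luminal sums do not.

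Of the 8 fibrillar members, 5 (KO) and 6 (WT) fell in EGF-WR against WR and 6 (KO) and 7 (WT) against EGF. Col1a1 (chromosome 11, 94936224 to 94953042, plus strand, GRCm38) encodes the main chain of collagen I, the most abundant collagen of connective tissue. It had 454, 190 and 329 CPM in KO EGF-WR, 788, 265 and 681 CPM in KO EGF and 742, 385 and 470 CPM in KO WR cultures. In WT it had 478, 149 and 251 CPM in EGF-WR, 1096, 340 and 745 CPM in EGF and 1033, 244 and 418 CPM in WR medium. The EGF-WR library was the lowest of each batch, though the groups overlapped, with batch 1 the highest and batch 2 the lowest of every group. The log2 fold change of EGF-WR over WR was -0.77 ± 0.21 (SE) in KO and -0.88 ± 0.21 in WT, with edgeR adjusted p of 0.0295 and 0.0169. These calls were lost in 4 (KO) and 3 (WT) of the 18 fits that left out 1 library. The edgeR adjusted p there reached 0.135 and 0.0805.

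Col1a2 (chromosome 6), the partner chain of collagen I, had 305, 129 and 229 CPM in KO EGF-WR, 494, 155 and 452 CPM in KO EGF and 448, 206 and 299 CPM in KO WR cultures. WT cultures had 334, 95.7 and 172 CPM in EGF-WR, 673, 199 and 533 CPM in EGF and 607, 149 and 250 CPM in WR medium. It followed Col1a1 batch by batch but passed the test only for WT EGF-WR against EGF, at -1.24 ± 0.22 on the log2 scale (edgeR adjusted p = 0.00242), while the KO value was -0.66 ± 0.21 (edgeR adjusted p = 0.0659).

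Col3a1 (chromosome 1, 45311538 to 45349706) encodes the single chain of collagen III, which mixes with collagen I in soft tissue. It had 211, 103 and 217 CPM in KO EGF-WR, 551, 194 and 597 CPM in KO EGF and 391, 193 and 261 CPM in KO WR cultures. The WT libraries showed 200, 89.8 and 113 CPM in EGF-WR, 763, 224 and 539 CPM in EGF and 460, 154 and 186 CPM in WR medium. The EGF cultures were the highest of their batch in both genotypes, and WT EGF-WR and WT EGF did not overlap. EGF-WR over EGF gave -1.28 ± 0.27 in KO and -1.83 ± 0.27 in WT on the log2 scale, with edgeR adjusted p of 0.0112 and 0.00111. The KO call was lost without KO EGF replicate 3, at an edgeR adjusted p of 0.0532.

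The collagen V chains regulate the width of collagen I fibrils. Col5a1 (chromosome 2) had 112, 71.0 and 86.1 CPM in KO EGF-WR, 235, 126 and 190 CPM in KO EGF and 225, 160 and 131 CPM in KO WR cultures. WT cultures had 124, 68.0 and 76.6 CPM in EGF-WR, 296, 140 and 198 CPM in EGF and 271, 130 and 112 CPM in WR medium. The EGF-WR libraries lay below all EGF libraries in both genotypes and below all WR libraries in KO, and Col5a1 fell in all 4 comparisons, by 0.90 ± 0.16 (WT against WR) to 1.23 ± 0.17 (WT against EGF) on the log2 scale.

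Col5a3 (chromosome 9) had 64.0, 40.6 and 33.8 CPM in KO EGF-WR, 185, 90.3 and 93.3 CPM in KO EGF and 159, 136 and 56.1 CPM in KO WR cultures. WT cultures had 58.7, 48.4 and 30.3 CPM in EGF-WR, 185, 120 and 104 CPM in EGF and 159, 121 and 56.2 CPM in WR medium. It had the largest falls of the fibrillar members that were called in all 4 comparisons, with log2 fold changes of -1.29 ± 0.21 (KO) and -1.23 ± 0.21 (WT) against WR and of -1.40 ± 0.21 (KO) and -1.59 ± 0.21 (WT) against EGF. Col5a2 (chromosome 1) fell in all 4 comparisons too, by 0.64 to 1.11 on the log2 scale, but against WR in KO its call was lost in 11 of the 18 fits that each left out 1 library.

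Col27a1, a fibrillar collagen best known from skeletal development, was much scarcer. It had 7.42, 3.36 and 3.29 CPM in KO EGF-WR, 13.3, 6.57 and 6.63 CPM in KO EGF and 14.5, 7.0 and 5.05 CPM in KO WR cultures. WT levels were 5.62, 2.47 and 3.9 CPM in EGF-WR, 11.3, 4.07 and 7.69 CPM in EGF and 15, 6.73 and 5.18 CPM in WR medium. It fell in all 4 comparisons, with log2 fold changes between -1.10 ± 0.24 and -0.90 ± 0.24 and the groups overlapped only through the EGF-WR libraries of batch 1. Col24a1, at 0 to 0.984 CPM, was called in no comparison.

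**Figure D2:**
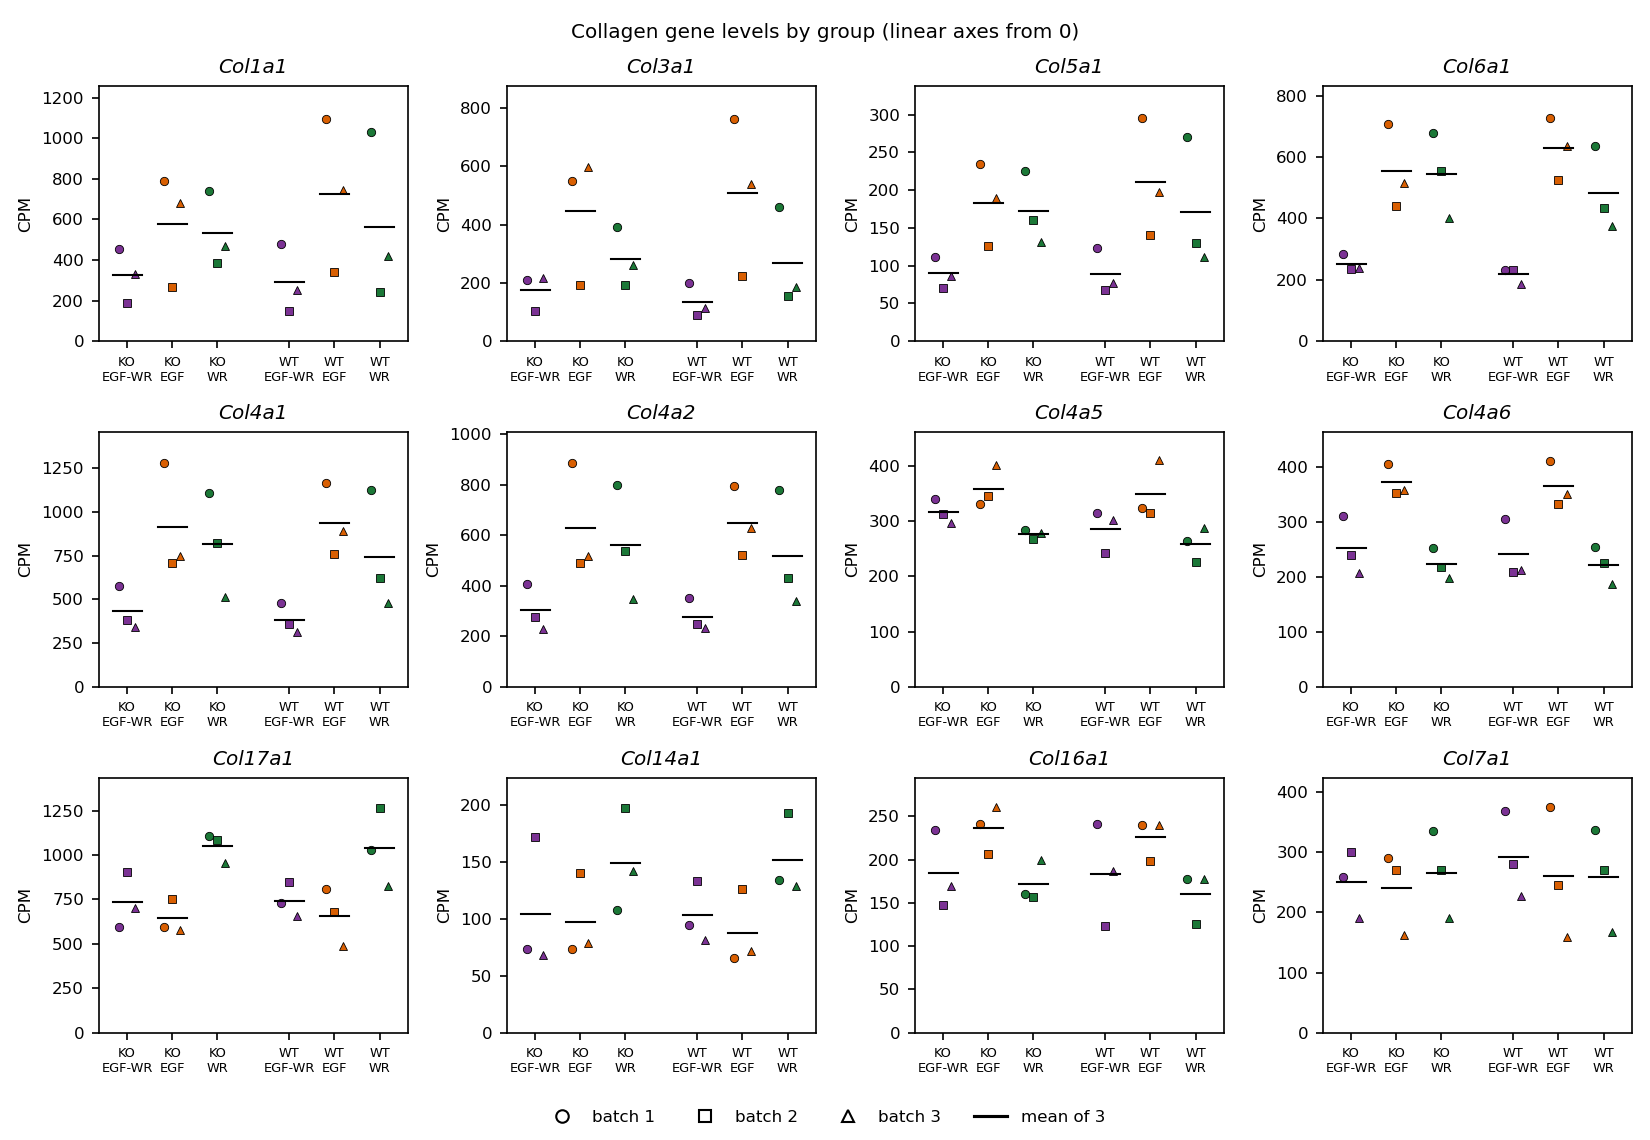
CPM of 12 collagen genes in every library on linear axes from 0, with KO groups left of WT groups, symbols for batches 1 to 3 and bars for the mean of 3. Col1a1, Col3a1, Col5a1, Col6a1, Col4a1 and Col4a2 are lowest in EGF-WR medium within each batch, Col4a6 is highest in EGF medium, Col17a1 and Col14a1 are highest in WR medium, and Col7a1 follows the batches.

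Collagen IV has 6 chains, encoded by 3 gene pairs whose members start close together and are read in opposite directions. Col4a1 (chromosome 8, 11198423 to 11312826, minus strand) and Col4a2 (11312805 to 11449287, plus strand) encode the chains found in every basement membrane. Col4a1 had 577, 383 and 340 CPM in KO EGF-WR, 1276, 706 and 749 CPM in KO EGF and 1109, 819 and 513 CPM in KO WR cultures. For WT the values were 477, 357 and 315 CPM in EGF-WR, 1163, 761 and 888 CPM in EGF and 1123, 620 and 478 CPM in WR medium. The WT EGF-WR libraries lay below every other WT library, and those of KO below every KO EGF library, with KO EGF-WR and KO WR overlapping through batch 1 of EGF-WR and batch 3 of WR.

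Col4a2 had 408, 278 and 231 CPM in KO EGF-WR, 886, 490 and 518 CPM in KO EGF and 798, 537 and 348 CPM in KO WR cultures. Its WT values were 351, 250 and 233 CPM in EGF-WR, 795, 522 and 631 CPM in EGF and 781, 431 and 341 CPM in WR medium. Like Col4a1, it was lowest in EGF-WR medium within every batch of both genotypes. EGF-WR over WR gave -0.89 ± 0.14 (KO) and -0.89 ± 0.14 (WT) for Col4a1 and -0.85 ± 0.15 (KO) and -0.84 ± 0.15 (WT) for Col4a2, on the log2 scale. EGF-WR over EGF gave -1.06 ± 0.14 (KO) and -1.30 ± 0.15 (WT) for Col4a1 and -1.04 ± 0.15 (KO) and -1.24 ± 0.15 (WT) for Col4a2. The largest edgeR adjusted p among these 8 values was 0.00174.

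Col4a5 (chromosome X, 141475385 to 141689234, plus strand) and Col4a6 (141165403 to 141474076, minus strand) encode chains that join in the basement membranes of smooth muscle and some epithelia. Col4a5 had 339, 313 and 297 CPM in KO EGF-WR, 330, 345 and 401 CPM in KO EGF and 283, 268 and 279 CPM in KO WR cultures. In WT it had 314, 242 and 302 CPM in EGF-WR, 323, 315 and 410 CPM in EGF and 263, 225 and 287 CPM in WR medium. Its EGF libraries lay above all WR libraries of the same genotype. EGF over WR gave 0.37 ± 0.09 in KO and 0.44 ± 0.09 in WT on the log2 scale (edgeR adjusted p = 0.0124 and 0.00357).

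Col4a6 had 311, 240 and 207 CPM in KO EGF-WR, 406, 353 and 359 CPM in KO EGF and 253, 219 and 199 CPM in KO WR cultures. WT cultures had 305, 209 and 212 CPM in EGF-WR, 411, 333 and 352 CPM in EGF and 254, 226 and 187 CPM in WR medium. The EGF libraries stood above all others of their genotype. Col4a6 had the smallest adjusted p of any member in EGF against WR, with log2 fold changes of 0.74 ± 0.08 in KO and 0.72 ± 0.08 in WT (edgeR adjusted p = 1e-05 and 1.06e-05), and these calls held without the batch term and with any 1 library or batch left out. It fell in EGF-WR against EGF, with -0.58 ± 0.08 in KO and -0.61 ± 0.08 in WT. Against WR neither gene was called in EGF-WR medium: Col4a5 was at 0.20 ± 0.09 (KO) and 0.15 ± 0.09 (WT) and Col4a6 at 0.16 ± 0.08 (KO) and 0.11 ± 0.08 (WT), where Col4a1 and Col4a2 had fallen.

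The sequences upstream of this pair are shown because its members share a locus yet differ in size of change, beside that of Col17a1, which was highest in WR medium. Each is the 5′ end of the RefSeq promoter window on GRCm38.p6 (250 bases before to 50 after the annotated start), up to the first annotated exon base, written 5′ to 3′ on the strand of its gene. Capitals mark the letters CCAAT, the GC box GGGCGG and the TATA box TATAAA in either orientation.
Col4a5, chrX:141475169-141475384, plus strand: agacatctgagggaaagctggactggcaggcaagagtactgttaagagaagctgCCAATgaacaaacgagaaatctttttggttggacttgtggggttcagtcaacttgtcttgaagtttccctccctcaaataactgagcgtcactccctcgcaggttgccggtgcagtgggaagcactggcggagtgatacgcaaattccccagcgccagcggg
Col4a6, chrX:141474077-141474326, minus strand: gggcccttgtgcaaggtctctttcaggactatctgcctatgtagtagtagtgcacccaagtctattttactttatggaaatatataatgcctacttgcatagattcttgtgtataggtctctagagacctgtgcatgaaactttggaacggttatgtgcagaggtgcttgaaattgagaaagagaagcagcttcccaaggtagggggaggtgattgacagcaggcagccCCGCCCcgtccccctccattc
Col17a1, chr19:47692095-47692292, minus strand: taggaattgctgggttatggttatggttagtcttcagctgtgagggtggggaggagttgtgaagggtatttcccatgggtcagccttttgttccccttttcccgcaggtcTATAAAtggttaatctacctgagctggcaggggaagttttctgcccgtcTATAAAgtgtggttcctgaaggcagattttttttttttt
The stretches are 216, 250 and 198 bases long with a GC content of 52.3%, 47.6% and 45.5%. Col4a5 holds 1 CCAAT, Col4a6 1 GGGCGG (here as CCGCCC) and Col17a1 a pair of TATAAA matches, at -140 and -91 from its RefSeq start. TGANTCA and CTTTGA were searched on both strands as well and found in none of the 3. In the exon part of its window, not printed here, Col4a5 also holds 1 GGGCGG, and Col17a1 there holds 1 CCAAT. The whole windows of Col4a5 and Col4a6 thus hold 1 GGGCGG each. Over whole windows of 300 bases, CCAAT stood in 37.4% of all 32851 RefSeq windows, GGGCGG in 35.7%, TATAAA in 13.6%, TGANTCA in 7.81% and CTTTGA in 16%. Of the 29 members with a window, 11 held CCAAT, 19 GGGCGG, 3 TATAAA, 1 TGANTCA and 5 CTTTGA. The RefSeq starts of Col4a5 and Col4a6 are 1343 bases apart. Those of Col4a1 and Col4a2 are 21 bases apart, and both of their windows lie wholly in annotated exons of the pair.

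Col4a3 and Col4a4 (chromosome 1) encode the chains of specialised basement membranes such as the glomerular one, and both were near the detection limit. Col4a4 had 0.437, 0.406 and 0.296 CPM in KO EGF-WR, 1.07, 1.63 and 1.27 CPM in KO EGF and 0.522, 0.288 and 0.231 CPM in KO WR cultures. The WT libraries showed 0.798, 0.888 and 0.144 CPM in EGF-WR, 0.635, 1.12 and 0.524 CPM in EGF and 0.492, 0.829 and 0.332 CPM in WR medium. The 3 KO EGF libraries lay above the other 6 KO libraries, and Col4a4 was called for KO EGF against WR at 1.96 ± 0.62 (edgeR adjusted p = 0.0444). This call rested on 334 counts over 18 libraries and was lost in 12 of the 18 fits that left out 1 library, without each of the KO EGF and KO WR libraries among them, at an edgeR adjusted p of up to 0.195. Col4a3 had 0 to 0.453 CPM.

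**Figure D3:**
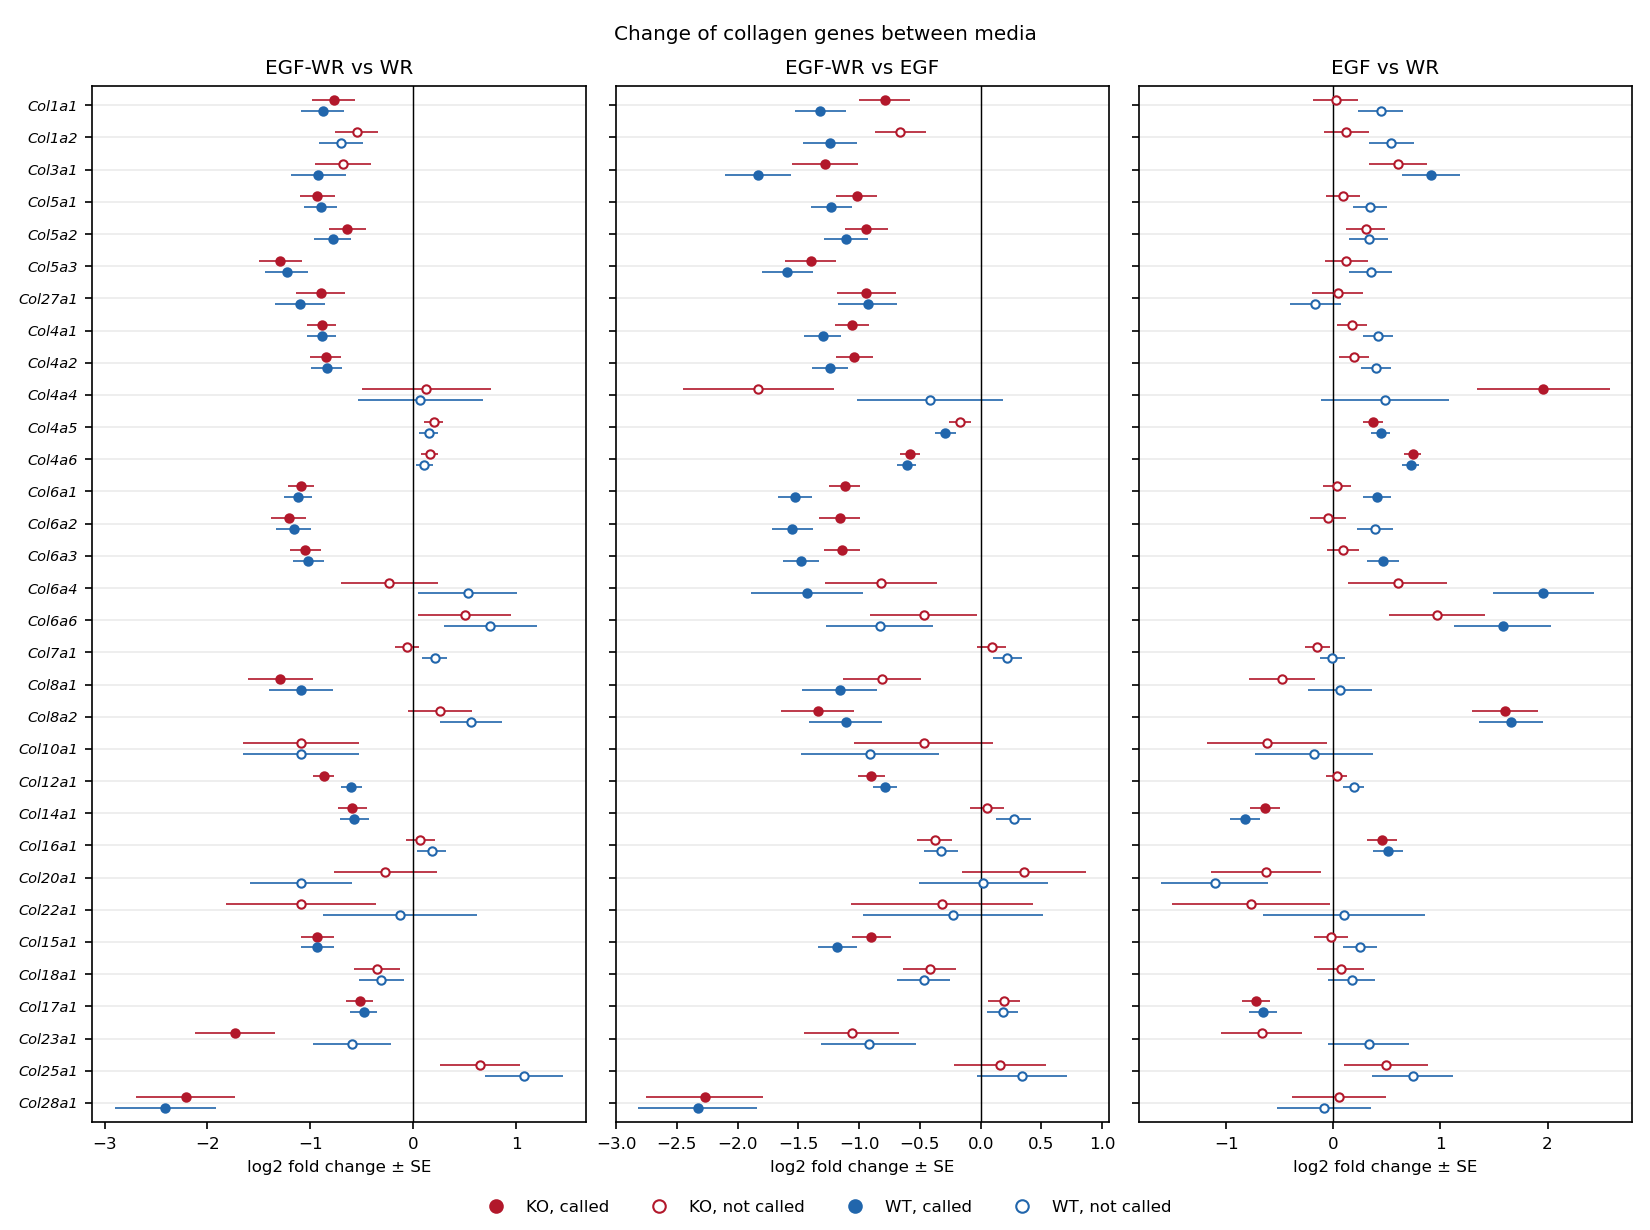
Log2 fold change with its SE for 32 of the 35 tested collagen genes between media, in KO (above) and WT (below) organoids; filled points passed an adjusted p under 0.05, and the scales of the 3 panels differ. Col24a1, Col26a1 and Col6a5 are left out for their low counts. Filled points lie left of 0 in the panels for EGF-WR, and on both sides of 0 for EGF against WR.

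Collagen VI is assembled from the products of Col6a1, Col6a2 and another chain, most often that of Col6a3. Col6a1 (chromosome 10, 76708792 to 76726168, minus strand) had 284, 234 and 237 CPM in KO EGF-WR, 707, 442 and 516 CPM in KO EGF and 680, 554 and 400 CPM in KO WR cultures. WT levels were 232, 233 and 187 CPM in EGF-WR, 729, 525 and 637 CPM in EGF and 635, 435 and 376 CPM in WR medium. Every EGF-WR library lay below every library of the other media of its genotype. Log2 fold changes were -1.09 ± 0.13 (KO) and -1.12 ± 0.14 (WT) against WR and -1.12 ± 0.13 (KO) and -1.53 ± 0.14 (WT) against EGF, with edgeR adjusted p between 1.92e-05 and 0.000224.

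Col6a2 (chromosome 10, 76595762 to 76623630, minus strand) had 252, 220 and 206 CPM in KO EGF-WR, 663, 410 and 458 CPM in KO EGF and 633, 608 and 357 CPM in KO WR cultures. For WT the values were 201, 227 and 172 CPM in EGF-WR, 678, 500 and 580 CPM in EGF and 580, 454 and 337 CPM in WR medium. It showed the same separation of EGF-WR libraries from the rest, and its 4 log2 fold changes lay between -1.55 ± 0.17 (WT against EGF) and -1.16 ± 0.17 (KO against EGF). Col6a1 and Col6a2 kept all 4 calls in the fit without batches.

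Col6a3 (chromosome 1) had 448, 209 and 200 CPM in KO EGF-WR, 1186, 393 and 423 CPM in KO EGF and 1021, 514 and 309 CPM in KO WR cultures. Its WT values were 461, 213 and 179 CPM in EGF-WR, 1237, 519 and 586 CPM in EGF and 1071, 434 and 312 CPM in WR medium. Batch 1 stood above batches 2 and 3 in each group, and within batches the EGF-WR library was the lowest. EGF-WR over WR gave -1.05 ± 0.15 in KO and -1.02 ± 0.15 in WT on the log2 scale (edgeR adjusted p = 0.000383 and 0.000488).

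Col6a4, Col6a5 and Col6a6, which lie side by side on chromosome 9 between 105687809 and 106096783, encode alternatives to the Col6a3 chain and averaged 2.85 CPM or less. Col6a4 had 1.64, 1.36 and 0.953 CPM in KO EGF-WR, 3.71, 1.85 and 1.72 CPM in KO EGF and 2.96, 1.57 and 0.562 CPM in KO WR cultures. In WT it had 0.958, 1.48 and 1.23 CPM in EGF-WR, 4.01, 2.42 and 3.8 CPM in EGF and 1.87, 0.656 and 0.465 CPM in WR medium. The 3 WT EGF libraries stood above the other 6 WT libraries, and EGF over WR gave 0.60 ± 0.46 in KO, which was not called, and 1.96 ± 0.47 in WT (edgeR adjusted p = 0.00793). The WT call was lost without WT EGF replicate 3 or WT WR replicate 3, at an edgeR adjusted p of up to 0.062.

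Col6a6 had 3.75, 1.92 and 2.24 CPM in KO EGF-WR, 3.71, 4.29 and 2.27 CPM in KO EGF and 2.58, 1.24 and 1.82 CPM in KO WR cultures. WT cultures had 3.74, 1.28 and 3.5 CPM in EGF-WR, 3.94, 4.7 and 5.34 CPM in EGF and 1.51, 0.621 and 2.92 CPM in WR medium. WT EGF libraries again lay above the other WT libraries, and EGF over WR was at 1.58 ± 0.45 in WT (edgeR adjusted p = 0.0232), a call lost without WT EGF replicate 2 or 3 or WT WR replicate 1 or 2, at an edgeR adjusted p of up to 0.129. In KO it was 0.97 ± 0.45 (edgeR adjusted p = 0.189). Col6a5, at 0 to 0.656 CPM, was not called.

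The fibril-associated members sit on the surface of collagen fibrils. Col12a1 (41.1 to 230 CPM over the 18 libraries) fell in all 4 comparisons of EGF-WR medium, by 0.60 to 0.90 on the log2 scale. Col14a1 (chromosome 15) had 73.6, 172 and 68.2 CPM in KO EGF-WR, 73.4, 140 and 78.4 CPM in KO EGF and 108, 197 and 142 CPM in KO WR cultures. The WT libraries showed 94.3, 133 and 81.4 CPM in EGF-WR, 65.4, 126 and 71.9 CPM in EGF and 134, 193 and 129 CPM in WR medium. WR medium gave the highest library of each batch in both genotypes. Col14a1 fell in EGF against WR by 0.64 ± 0.14 (KO) and 0.83 ± 0.14 (WT), and in EGF-WR against WR by 0.59 ± 0.14 (KO) and 0.57 ± 0.14 (WT), on the log2 scale, and EGF-WR and EGF did not differ by the test (0.05 ± 0.14 in KO, 0.27 ± 0.14 in WT).

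Col16a1 (chromosome 4) had 234, 148 and 170 CPM in KO EGF-WR, 241, 207 and 261 CPM in KO EGF and 160, 157 and 200 CPM in KO WR cultures. WT levels were 241, 123 and 187 CPM in EGF-WR, 240, 198 and 240 CPM in EGF and 177, 126 and 177 CPM in WR medium. EGF libraries lay above all WR libraries of their genotype, with log2 fold changes of 0.45 ± 0.14 in KO and 0.51 ± 0.14 in WT (edgeR adjusted p = 0.0439 and 0.0204). The KO call was lost in 12 of the 18 fits that left out 1 library and the WT call in 4 of them (WT EGF replicates 2 and 3, WT WR replicates 1 and 2). Col20a1 and Col22a1, at 3.66 CPM or less, were not called.

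Among the network-forming collagens VIII and X, Col8a1 (chromosome 16) had 8.26, 3.28 and 4.04 CPM in KO EGF-WR, 11.1, 5.62 and 8.97 CPM in KO EGF and 12.2, 11.7 and 9.55 CPM in KO WR cultures. For WT the values were 12.2, 2.96 and 5.34 CPM in EGF-WR, 31.4, 7.19 and 9.33 CPM in EGF and 27.1, 8.22 and 8.7 CPM in WR medium. It fell in EGF-WR against WR, by 1.29 ± 0.32 in KO and 1.09 ± 0.31 in WT on the log2 scale, and against EGF in WT by 1.16 ± 0.31. In this order the calls were lost in 3, 5 and 3 of the 18 fits that left out 1 library. The KO libraries of EGF-WR and WR did not overlap, and the WT ones did.

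Col8a2 (chromosome 4) had 8.48, 4.72 and 2.2 CPM in KO EGF-WR, 21.9, 8.11 and 8.93 CPM in KO EGF and 6.76, 3.38 and 2.51 CPM in KO WR cultures. Its WT values were 14.4, 3.55 and 3.07 CPM in EGF-WR, 22.0, 7.93 and 9.5 CPM in EGF and 10.7, 1.48 and 2.59 CPM in WR medium. EGF medium gave the highest library of each batch in both genotypes. It rose in EGF against WR, with 1.60 ± 0.31 in KO and 1.66 ± 0.30 in WT, and fell in EGF-WR against EGF, with -1.34 ± 0.30 in KO and -1.11 ± 0.30 in WT. Col10a1, the collagen of hypertrophic cartilage, had 0.108 to 5.7 CPM and was not called.

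Of the multiplexins, which carry anti-angiogenic fragments at their ends, Col15a1 (73.9 to 280 CPM) fell in all 4 comparisons of EGF-WR medium, by 0.90 to 1.18 on the log2 scale. Col18a1 (chromosome 10), a heparan sulfate collagen of basement membranes, had 406, 577 and 438 CPM in KO EGF-WR, 776, 554 and 588 CPM in KO EGF and 753, 636 and 469 CPM in KO WR cultures. In WT it had 403, 567 and 365 CPM in EGF-WR, 791, 510 and 558 CPM in EGF and 731, 590 and 369 CPM in WR medium. The EGF-WR library was the lowest of its batch in 4 of 6 cases and Col18a1 passed no test, with EGF-WR over WR at -0.35 ± 0.22 (KO) and -0.31 ± 0.22 (WT).

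Col28a1, whose product is best known beside Schwann cells, had the largest fold of all called members. It had 1.06, 0.111 and 0.493 CPM in KO EGF-WR, 2.97, 2.7 and 1.48 CPM in KO EGF and 3.52, 1.94 and 1.75 CPM in KO WR cultures. WT cultures had 0.639, 0.362 and 0.289 CPM in EGF-WR, 2.24, 1.72 and 2.13 CPM in EGF and 4.33, 1.24 and 1.79 CPM in WR medium. Every EGF-WR library was below every library of the other media in its genotype, and the log2 fold changes were -2.21 ± 0.48 (KO) and -2.41 ± 0.49 (WT) against WR and -2.27 ± 0.48 (KO) and -2.33 ± 0.49 (WT) against EGF. It rested on 868 counts over the 18 libraries. The summed Schwann cell markers ran at 564 to 920 CPM in KO EGF-WR, 637 to 793 in KO EGF and 427 to 612 in KO WR cultures, and at 650 to 865, 604 to 894 and 461 to 635 CPM in the same WT media. Their median log2 fold change in EGF-WR against WR went the other way, at -0.44 in KO and -0.74 in WT. The sum therefore does not stand for the list as a whole. The part of Schwann cells in the level of Col28a1 was not tested. Col26a1, at 0 to 0.787 CPM, was not called.

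Of the collagens that anchor epithelial cells, Col17a1 was highest in WR medium and Col7a1 passed no test. Col17a1 (chromosome 19, 47646344 to 47692094, minus strand), a transmembrane hemidesmosome component, had 597, 902 and 704 CPM in KO EGF-WR, 597, 755 and 576 CPM in KO EGF and 1109, 1085 and 953 CPM in KO WR cultures. The WT libraries showed 728, 847 and 655 CPM in EGF-WR, 808, 677 and 489 CPM in EGF and 1030, 1266 and 827 CPM in WR medium. WR medium gave the highest library of each batch in both genotypes, with no overlap with EGF. EGF over WR gave -0.72 ± 0.13 in KO and -0.66 ± 0.13 in WT, and EGF-WR over WR gave -0.52 ± 0.13 in KO and -0.48 ± 0.13 in WT (log2, edgeR adjusted p between 0.00177 and 0.0318). EGF-WR over EGF was not called, at 0.19 ± 0.13 in KO and 0.18 ± 0.13 in WT. The calls of EGF-WR against WR were lost without single libraries, in 3 of 18 fits for KO (KO EGF-WR replicate 1 and KO WR replicates 1 and 3) and in 5 of 18 for WT (WT EGF-WR replicates 1 to 3 and WT WR replicates 1 and 2), at an edgeR adjusted p of up to 0.0813 and 0.14.

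The summed basal epithelial markers were highest in WR medium, as Col17a1 was, at 3946 to 5650 CPM in KO EGF-WR, 3678 to 4945 in KO EGF and 6353 to 7547 in KO WR, and to 4389 to 5486, 3840 to 4506 and 6238 to 8330 CPM in the same WT media. Of the 7, 5 fell in EGF-WR against WR and 3 in EGF against WR, in either genotype, and Oxtr rose in EGF against WR in KO. In EGF-WR against EGF, Acta2 and Myh11 fell in both genotypes, while Krt5 rose in both and Krt14 rose in WT. Epidermal markers (Krt1, Krt10, Flg, Lor, Ivl and Sbsn) summed to 125 to 225 CPM in KO EGF-WR, 73.9 to 172 in KO EGF and 380 to 800 in KO WR cultures, and to 133 to 234, 96.8 to 132 and 409 to 1508 CPM in WT. The part of either in the level of Col17a1 was not tested.

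Col7a1 (chromosome 9), the chain of anchoring fibrils, had 259, 301 and 190 CPM in KO EGF-WR, 291, 270 and 162 CPM in KO EGF and 336, 271 and 191 CPM in KO WR cultures. WT levels were 369, 280 and 227 CPM in EGF-WR, 375, 246 and 159 CPM in EGF and 338, 271 and 167 CPM in WR medium. The media overlapped in full and batch 3 was the lowest of its group in all 6 groups. No comparison was called, and the log2 fold changes between media ran from -0.15 ± 0.12 (KO EGF over WR) to 0.22 ± 0.12 (WT EGF-WR over EGF). Without batch 1, WT EGF-WR over EGF was called at 0.34 ± 0.10 (edgeR adjusted p = 0.0496).

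Col23a1 (chromosome 11), a transmembrane collagen, had 2.51, 1.59 and 2.6 CPM in KO EGF-WR, 5.85, 1.8 and 6.8 CPM in KO EGF and 9.82, 6.1 and 6.05 CPM in KO WR cultures. For WT the values were 2.08, 3.29 and 2.85 CPM in EGF-WR, 4.88, 3.44 and 8.12 CPM in EGF and 4.66, 4.56 and 3.19 CPM in WR medium. It fell in KO EGF-WR against WR, where the libraries did not overlap, at -1.73 ± 0.39 (edgeR adjusted p = 0.00639), and was -0.59 ± 0.38 in WT (edgeR adjusted p = 0.423).

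Col25a1, a transmembrane collagen known from motor neurons, had 8.59, 1.73 and 6.58 CPM in KO EGF-WR, 7.37, 3.26 and 3.54 CPM in KO EGF and 3.8, 3.34 and 2.18 CPM in KO WR cultures. WT organoids had 9.0, 2.53 and 9.64 CPM in EGF-WR, 7.05, 3.4 and 5.47 CPM in EGF and 3.64, 2.38 and 3.19 CPM in WR medium. In batches 1 and 3 the EGF-WR library was the highest of its genotype, and in batch 2 it lay between the others in WT and was the lowest in KO. EGF-WR over WR was not called, at 0.65 ± 0.39 in KO and 1.08 ± 0.38 in WT on the log2 scale (edgeR adjusted p = 0.327 and 0.0827). Without batch 2 it was called, at 1.36 ± 0.29 in KO and 1.48 ± 0.29 in WT (edgeR adjusted p = 0.0129 and 0.00892), while the 12 other members called in that fit in either genotype fell.

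Between EGF and WR medium the called collagens went in both directions. In KO 5 members rose (Col4a4, Col4a5, Col4a6, Col8a2 and Col16a1) and 2 fell (Col14a1 and Col17a1), where 7.55% of all genes rose and 5.94% fell. In WT 9 rose (Col3a1, Col4a5, Col4a6, Col6a1, Col6a3, Col6a4, Col6a6, Col8a2 and Col16a1) and the same 2 fell, where 8.52% of all genes rose and 6.92% fell. The median log2 fold change of the tested members was 0.07 in KO and 0.34 in WT, with all genes at -0.016 and -0.011, and 12 (KO) and 10 (WT) of the 35 lay below 0. Of the members that rose, 4 were shared, which is 80% of the KO list and 44.4% of the WT list. Both lists came from the same fit, and this share was not computed for all genes. The WT calls of Col6a1 and Col6a3 (edgeR adjusted p = 0.0496 and 0.049) were lost in 11 and 15 of the 18 fits that left out 1 library. That of Col3a1 (edgeR adjusted p = 0.0396) was lost in 9 of the 18. The total of calls was 2 for KO without batch 3, 4 for KO without batch 2 or without KO EGF replicate 2 or 3 or KO WR replicate 3, and 5 to 7 for WT without batch 1, 2 or 3, WT EGF replicate 3, WT WR replicate 2 or WT WR replicate 3. Col4a6 alone was called in the fit without batches, in which 2.56% (KO) and 3.18% (WT) of all genes rose.

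Loss of RasGRP1 gave no called collagen. In EGF-WR, EGF and WR medium, and averaged over the media, 0 of 35 tested members differed between KO and WT in edgeR, where 0.0819%, 0.0702%, 0.0819% and 0.339% of all genes were called in either direction. At an unadjusted p under 0.05 the count was also 0 in each, against 4.14%, 3.26%, 5.2% and 10.8% of all genes. DESeq2 called 0 members as well, with 0.179%, 0.199%, 0.164% and 1.19% of all genes called. The authors' deposited table called 0 members within the 3 media, with 0.447%, 0.212% and 0.434% of its genes. Averaged over the media, the 21 members at 10 CPM or more lay between -0.36 ± 0.18 (Col8a1) and 0.14 ± 0.15 (Col3a1) on the log2 scale, with SEs of 0.05 to 0.18. Within single media the extremes were -0.66 ± 0.31 for Col8a1 in EGF and 0.40 ± 0.27 for Col3a1 in EGF-WR. These SEs leave room for small differences between genotypes.

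The response to the media was also compared between genotypes by interaction terms. No member was called for EGF against WR, EGF-WR against WR or EGF-WR against EGF, and neither was any of the 17092 genes. At an unadjusted p under 0.05 there was 1 member in the first (Col6a5), 0 in the second and 2 in the third (Col6a1 and Col6a5), against 2.08%, 1.67% and 1.79% of all genes. DESeq2 called 0 members in each, with 0%, 0.00585% and 0% of all genes. Among members at 10 CPM or more, the difference of KO minus WT in EGF-WR against EGF ran from -0.21 ± 0.19 for Col14a1 to 0.57 ± 0.30 for Col1a2 on the log2 scale.

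Ratios between chain pairs varied over narrow ranges for some pairs and wide ones for others. Per kilobase of exon, Col4a1 over Col4a2 ran from 1.31 to 1.49 over the 18 libraries (median 1.40) and Col6a1 over Col6a2 from 1.34 to 1.70. Col1a1 over Col1a2 ran from 1.26 to 1.68, averaging 1.32 ± 0.0229 in KO EGF-WR, 1.45 ± 0.0904 in KO EGF and 1.53 ± 0.136 in KO WR, and 1.34 ± 0.0623, 1.42 ± 0.144 and 1.51 ± 0.0272 in the same WT media (SD, n = 3 each), and EGF-WR lay below WR in every batch of both genotypes without overlap. Col4a1 over Col4a5 ran from 1.03 to 4.22. It averaged 1.34 ± 0.297 in KO EGF-WR, 2.57 ± 1.10 in KO EGF and 2.90 ± 1.03 in KO WR, and 1.33 ± 0.260, 2.69 ± 0.754 and 2.86 ± 1.29 in the same WT media (SD, n = 3 each). Col4a5 over Col4a6 averaged 1.30 ± 0.178, 0.986 ± 0.155 and 1.27 ± 0.146 in KO EGF-WR, EGF and WR and 1.23 ± 0.204, 0.982 ± 0.193 and 1.21 ± 0.302 in WT, lowest in EGF medium in each genotype. Col6a3 over Col6a1 followed the batches, at 0.567 to 0.751 in batch 1 and 0.291 to 0.377 in batches 2 and 3. The ratios are given as a description, without a test, and these chains share libraries and depth.

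**Figure D4:**
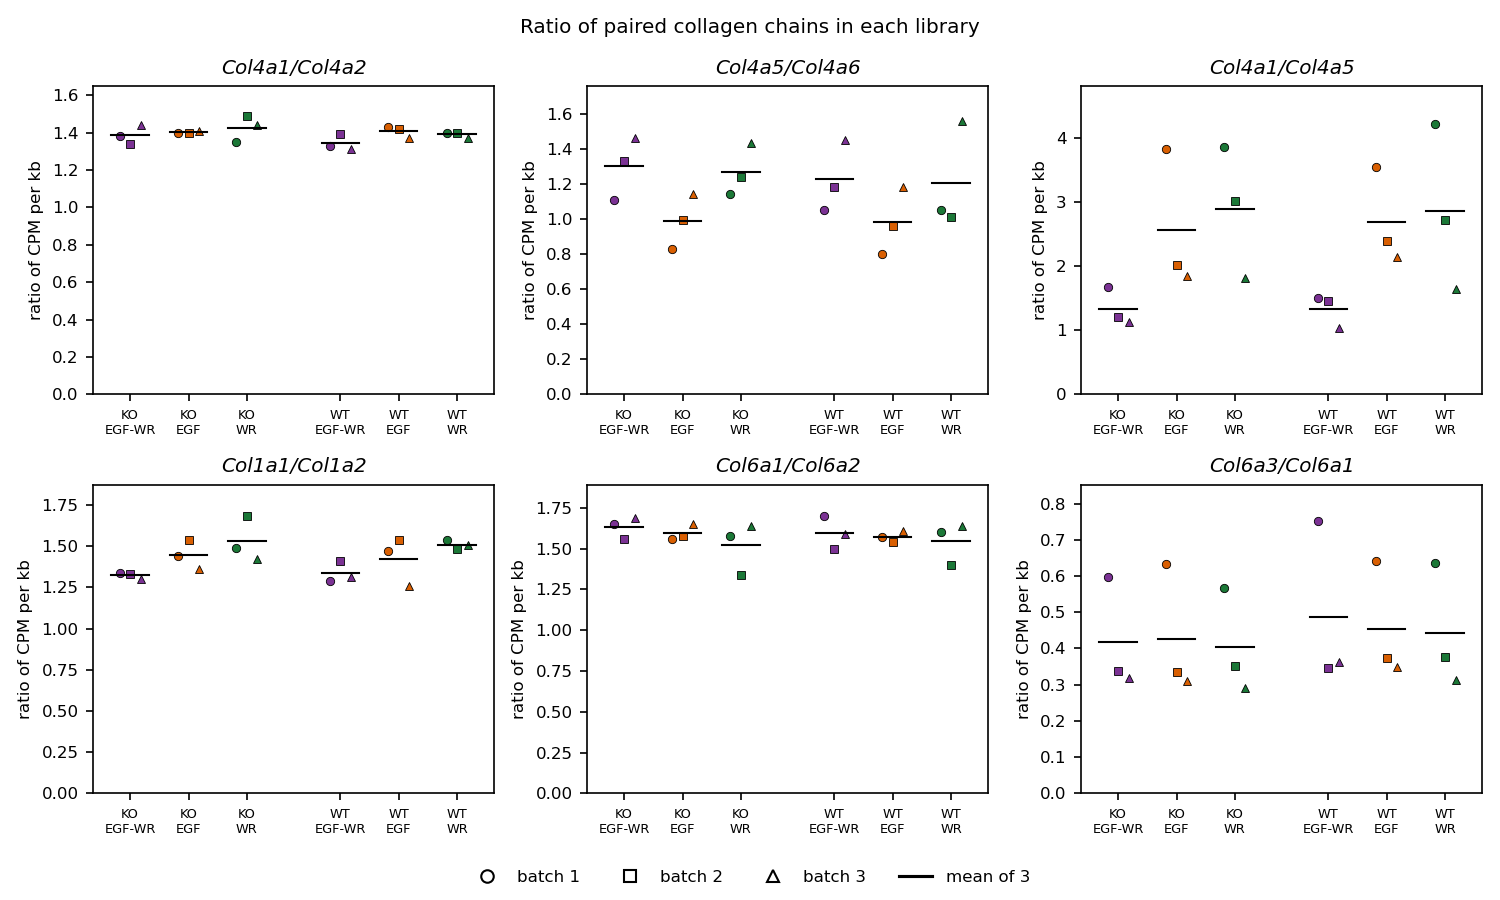
Ratio of 6 pairs of collagen chains per kilobase of exon in each library, on linear axes from 0, with KO groups left of WT groups, symbols for batches 1 to 3 and bars for the mean of 3. Col4a1/Col4a2, Col6a1/Col6a2 and Col1a1/Col1a2 vary little beside the other pairs, though Col1a1/Col1a2 in EGF-WR medium stays below its WR values. Col4a1/Col4a5 is lowest in EGF-WR medium, Col4a5/Col4a6 is lowest in EGF medium and Col6a3/Col6a1 is highest in batch 1.

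Many of the enzymes and chaperones that modify, fold and crosslink collagen were highest in EGF medium. Of 32 such genes, 13 (KO) and 19 (WT) rose and 2 fell in EGF against WR, and 13 (KO) and 17 (WT) fell in EGF-WR against EGF, where 1 (Adamts3) rose in KO and 0 in WT. In EGF-WR against WR, 5 (KO) and 4 (WT) rose, where the collagens fell, and 3 (KO) and 1 (WT) fell. Of all genes, 7.55% (KO) and 8.52% (WT) rose and 5.94% and 6.92% fell in EGF against WR. The shares in EGF-WR against WR were 6.1% and 4.92% higher and 6.65% and 5.82% lower. Those in EGF-WR against EGF were 5.17% and 6.85% higher and 6.48% and 8.78% lower. The same shares apply to the lists below. P3h2, a prolyl 3-hydroxylase that acts on collagen IV, averaged 89.7 CPM in KO EGF-WR, 137 CPM in KO EGF and 36.1 CPM in KO WR, with 87.6, 135 and 32.5 CPM in WT. Its log2 fold changes of EGF over WR were 1.92 ± 0.11 in KO and 2.06 ± 0.11 in WT (edgeR adjusted p = 4.75e-09 and 1.72e-09). The lysyl oxidase family members Loxl3 and Loxl4, which start the crosslinking of collagen, rose in EGF against WR by 1.94 ± 0.22 and 1.44 ± 0.23 in KO and by 2.03 ± 0.22 and 1.76 ± 0.24 in WT, on the log2 scale. Pcolce, which enhances the trimming of procollagen, fell in EGF-WR against WR by 0.73 ± 0.18 in KO and 0.78 ± 0.18 in WT. Pcolce, Lox, Loxl1 and Adamts2 fell in EGF-WR against EGF in WT, and all but Lox did in KO.

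Among 10 collagen receptors, of which 9 were tested, 5 fell in EGF-WR against WR in either genotype, and 4 (KO) and 5 (WT) against EGF, with none rising. Ddr2, a receptor tyrosine kinase for fibrillar collagen, fell by 1.43 ± 0.18 in KO and 1.25 ± 0.18 in WT against WR (log2, edgeR adjusted p = 5.32e-05 and 0.000186). Itga11, the alpha chain of a fibroblast collagen I integrin, averaged 27.9 CPM in KO EGF-WR and 85.6 CPM in KO WR, and 29.9 CPM in WT EGF-WR and 70.3 CPM in WT WR. Itga2 and Itgb1, which form an epithelial collagen integrin, rose in EGF against WR in both genotypes, Itga2 by 0.48 ± 0.14 in KO and 0.92 ± 0.14 in WT and Itgb1 by 0.37 ± 0.06 and 0.50 ± 0.06. Itga11 and Itga10 fell in the same comparison, by 1.23 ± 0.18 and 1.82 ± 0.33 in KO and by 0.79 ± 0.17 and 1.62 ± 0.32 in WT.

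Of 8 basement membrane partners, 5 fell in EGF-WR against WR in either genotype and 4 (KO) and 5 (WT) against EGF, while Agrn rose against WR in KO and Tinagl1 rose against EGF in both genotypes. In EGF against WR, 1 rose and 1 fell in KO, and 1 rose and 2 fell in WT. Nid1, the linker between collagen IV and laminin, fell against WR by 1.06 ± 0.18 in KO and 1.04 ± 0.18 in WT on the log2 scale. Smoc1 had the largest change against EGF, averaging 89.2 CPM in KO EGF-WR and 444 CPM in KO EGF, and 87.6 CPM in WT EGF-WR and 374 CPM in WT EGF. Agrn (agrin), a heparan sulfate proteoglycan, rose in EGF against WR by 0.47 ± 0.07 in KO and 0.43 ± 0.07 in WT.

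Of 13 genes for proteins that bind collagen fibrils, 12 were tested, 9 fell in EGF-WR against WR and 8 in EGF-WR against EGF, in either genotype, and none rose. In EGF against WR, 1 rose and 2 fell in KO, and 3 rose and 2 fell in WT. Fn1 (fibronectin) rose in EGF against WR by 1.80 ± 0.29 in KO and 2.04 ± 0.29 in WT and fell in EGF-WR against EGF by 2.23 ± 0.29 in KO and 2.27 ± 0.29 in WT (edgeR adjusted p between 0.000502 and 0.00132). Dcn (decorin), a proteoglycan of collagen I fibrils that is also on the fibroblast list, fell in EGF-WR against WR by 1.82 ± 0.34 in KO and 1.85 ± 0.34 in WT. Tnxb (tenascin X) fell in EGF-WR against EGF by 1.78 ± 0.25 in KO and 2.47 ± 0.26 in WT. No gene of these 4 lists was called between KO and WT or for an interaction.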

How the data were processed

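The authors deposited raw read counts per Ensembl gene for 18 libraries, and these counts were the only values tested. A second deposited table holds normalized signal and variance-stabilized log2 values of every library, per the file headers, both unused here, and the authors' log2 fold change with p-value and adjusted p-value for each comparison, used for counts of called members. STAR, DESeq2 and GRCm38 are named in the submitters' processing notes, without versions; annotation, counting tool and strand setting were not stated. Per the labels' protocols, libraries came from 100 ng of RNA with a NuGEN kit, read as single ends of 50 bases, after dissociation with TrypLE. Depth was 24290097 to 31269899 counts per library. Columns of no sample of the series numbered 0.

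Counts were fitted in edgeR 4.0.16 (R 4.3.3, limma 3.58.1) with TMM and filterByExpr (minimum count 10, minimum total 15; 17092 of 55536 genes kept), 1 mean per group plus the batch. Quasi-likelihood tests (robust, two-sided) were adjusted by Benjamini-Hochberg over all genes within each of 13 contrasts and called at an adjusted p under 0.05. The batch was in the fit because the labels give it and the deposited headers name it. Libraries of the same number, and so of the same labelled batch, deviated together from their group means in all 45 pairs, with correlations of 0.175 to 0.453. CPM are counts over the TMM-scaled library size. Exon lengths are unions of GENCODE M21 basic exons on GRCm38. SE is the log2 fold change over the square root of F.

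Alternatives were no batch term, DESeq2 1.42.0, its size factors, no low-count filter, a filter at 1 CPM, and leaving out each batch and each library. Members and gene lists were chosen with earlier results of these data known. Values in every library are given for up to 6 called members with the largest changes in each direction of a contrast and for Col1a1, Col1a2, Col3a1, Col4a1, Col4a2, Col5a1, Col6a1, Col7a1, Col17a1 and Col18a1, and of the lists up to 3 called genes in each direction were eligible. Agrn, Tinagl1, Itga2, Itgb1, Itga10, Itga11, Dcn, Pcolce, Lox, Adamts2, Col25a1 and the single marker genes with their direction were named outside that rule, after their values were seen. Promoter windows are from RefSeq.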

Additional observations from a re-analysis of the deposited data

How the results depend on the processing

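Counts of calls stayed within 1.5 times under DESeq2, its size factors (which moved no member by more than 0.013 and the median of all genes by no more than 0.007 on the log2 scale) and a filter at 1 CPM, and among the EGF-WR comparisons DESeq2 added 1 upward call, Col25a1 in WT against WR. The counts of calls fell most in the fit with no replicate block, which leaves out the batch pairing: 3, 2 and 1 in KO for EGF-WR against WR, EGF-WR against EGF and EGF against WR, and 2, 3 and 1 in WT. With no low-count filter, which tests more genes, WT EGF against WR had 7. Leaving out 1 batch or 1 library gave 10 to 17, 11 to 18 and 2 to 7 calls in KO in the same order, and 3 to 18, 14 to 21 and 5 to 12 in WT. The lowest of these, for WT EGF-WR against WR, was without batch 1. In the same order, 11 of 17, 12 of 16 and 4 of 7 calls in KO held in all 18 fits without 1 library. In WT 10 of 17, 15 of 20 and 5 of 11 did. The KO against WT comparisons and the interactions stayed at 0 throughout. With no replicate block 12 of the 88 calls of members between media remained, and 50 of the 61 named values that had a call lost it. Depth limits members under about 1 CPM, whose SEs exceed most differences.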
